A study of Zostera marina with 23 samples.

Results

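The genes described here are 300 nuclear gene identifiers of eelgrass, Zostera marina, whose messenger RNA was high in male flower and low in female flower, leaf and root. They were chosen by level. For each gene the median of log2(scaled fragments + 1) was taken in each of the 4 tissues, and the widest gap between the ordered medians had to leave male flower alone above it. The male median had to be at least 6, the gap at least 2 and the difference between the later and the earlier female libraries at most 2. Of 22537 nuclear identifiers, within 22733 in all, 3708 had male flower alone above the gap and 1514 met every criterion, and the 300 with the widest gaps were kept. A scaled fragment is a sequenced fragment counted at a gene and multiplied by 1 factor per library. The levels of male flower against the other tissues therefore chose the genes, and they are given below as a description without a test.

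The series holds 23 libraries, sequenced from poly(A)-selected RNA of wild shoots that flowered in seawater tanks warmed from 5 to 15 °C under light lengthened from 12 to 16 hours a day. There were 7 male flower libraries, 6 female flower libraries, 6 leaf libraries titled vegetative and 4 root libraries, each named here by its tissue and the number in its title. Among the female libraries 3 were early and 2 late in development, and early 3 has a title that says early and a tissue label that says late, so it counts here as female flower of disputed stage. No genotype or treatment is given that sets the groups apart, and the labels do not say that libraries came from separate plants, so the p-values measure the spread between samples, which may be partly technical. Each library is a whole organ, in which fewer cells of a type and less RNA per cell cannot be told apart. Depth, read from the steps between low values, was 5696800 to 13679080 fragments per library.

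Eelgrass flowers, sheds pollen and sets seed under water, and male and female flowers stand together in 1 sheathed inflorescence. The male flower is in essence an anther, in which a nourishing inner layer surrounds the cells that become pollen. Eelgrass pollen is a long thread that drifts in water and lacks the sculptured outer wall of most pollen. In other flowering plants, mature pollen is known for abundant transcripts that are scarce in the rest of the plant. No source used here names the genes behind the identifiers, so no role is given to any of them. No marker of pollen or anther was looked up. The tissue labels were not checked, since levels of genes chosen through those labels cannot check them.

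The median of the 300 genes was high in all 7 male libraries and near the limit of counting in 15 of the other 16, with exceptions for single genes that are given below. Their median level was 3454, 6015, 4209, 3237, 2765, 1249 and 5536 scaled fragments in male libraries 0 to 6. In female flower it was 42.5 in early 0 and 2.10, 3.57, 2.93, 2.00 and 4.36 in early 1, early 2, early 3, late 0 and late 1. The 6 leaf libraries had medians of 1.13 to 5.98, the highest in leaf 3, and the 4 root libraries had 1.63 to 2.24. The medians of male flower thus did not overlap those of any other tissue, and early 0 was the only other library whose median passed 10. Of the 300 genes, 270 had their lowest male value above their highest value elsewhere, against 12.7% of the 17445 genes tested, a count that the choice of genes largely fixes. In 28 of the remaining 30 genes the lowest male library was male 5, and in 27 the highest other library was early 0.

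**Figure D1:**
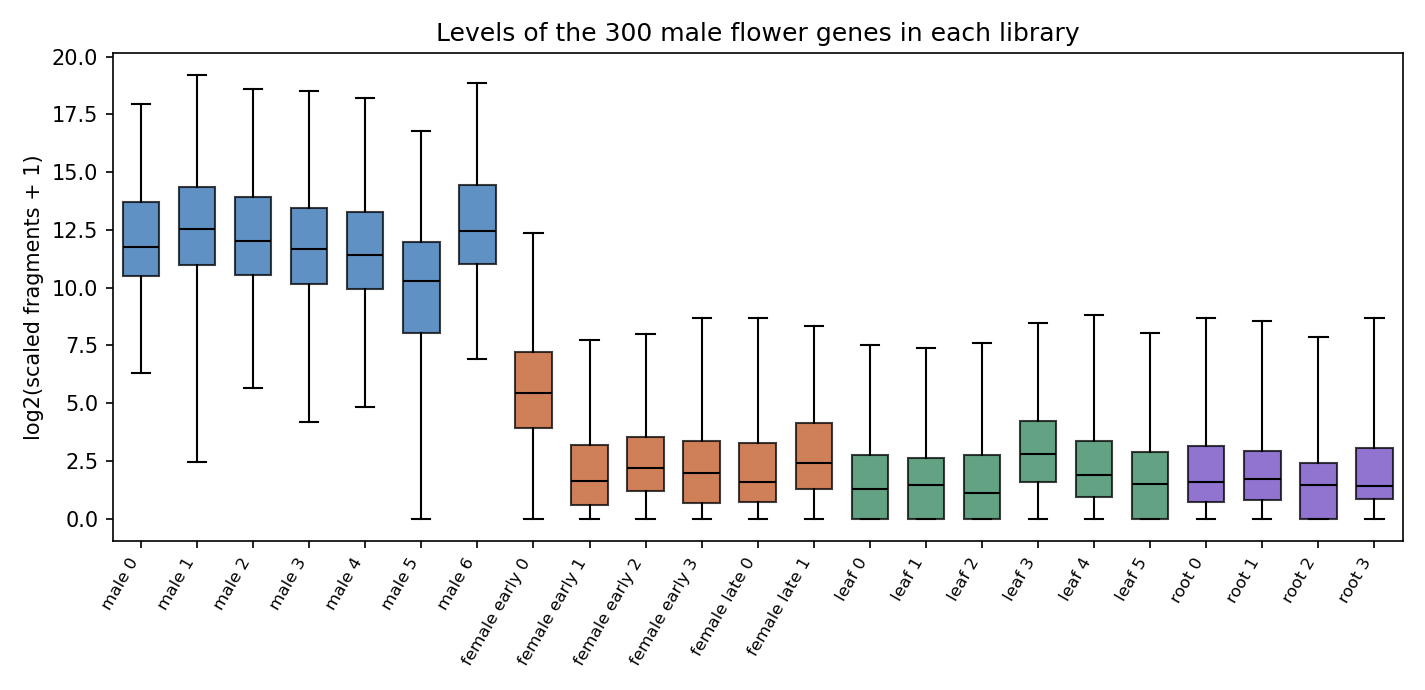
Levels of the 300 genes in each of the 23 libraries, as log2(scaled fragments + 1). Boxes span the quartiles with the median as a line, and whiskers reach the lowest and the highest gene. All 7 male boxes lie above the others, male 5 is the lowest of them with a median of 10.29, and female early 0 stands above the rest of the non-male libraries with a median of 5.44.

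A large part of the male flower's messenger RNA came from these genes. They held 28.0% ± 7.25 (SD, n = 7) of the scaled fragments of a male library, against 0.197% ± 0.364 in female flower (n = 6), 0.0307% ± 0.0164 in leaf (n = 6) and 0.0323% ± 0.00280 in root (n = 4). The male libraries ranged from 13.1% in male 5 to 34.0% in male 6. Without male 5 the male share was 30.4% ± 3.34 (n = 6), and without early 0 the female share was 0.0487% ± 0.00950 (n = 5). Counting error was small beside this spread, since the 95% Wilson interval was 13.03% to 13.08% in male 5 and 0.934% to 0.946% in early 0. A share within a library does not depend on the library's own factor.

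**Figure D2:**
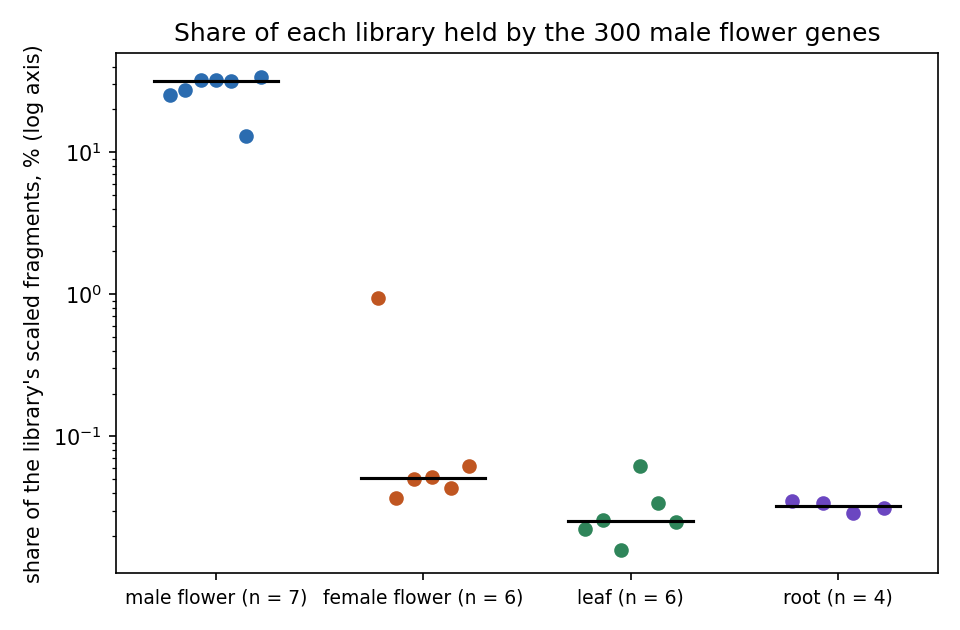
Share of each library's scaled fragments held by the 300 genes, in percent on a log axis. Points are libraries, in the order of their titles within a tissue, and black lines are tissue medians. Male libraries hold 13.1% to 34.0%, female early 0 holds 0.940%, and the other libraries hold 0.0159% to 0.0621%.

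Levels differed widely among the genes. Per gene length, in FPKM (fragments per kilobase of transcript, scaled to library size), the male median ran from 31.1 to 28225 with a median of 394 over the genes, and the 10 highest genes held 36.3% of the FPKM of all 300 in male flower. All 10 of the most abundant genes of male flower by FPKM were among the 300, as were 38 of the top 50 and 65 of the top 100. The choice by gap favours abundant genes. No gap can exceed the gene's male median on the log2 scale, and the smallest gap kept was 7.91. Before division by length, 250 genes had a male median of at least 1000 scaled fragments, and 12 had one of at least 100000. Zosma180g00080 had the most scaled fragments, with a male median of 9073 FPKM and with 249755, 601990, 397267, 369315, 306149, 114111 and 473940 scaled fragments in male libraries 0 to 6. Every one of these lay above 100000, with male 5 lowest and male 1 highest. The same gene ranged from 80.2 to 5245 in female flower with a median of 116, from 47.6 to 344 in leaf with a median of 80.9, and had 72.5, 56.7, 58.1 and 92.0 in the roots.

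The widest gap, 11.94 on the log2 scale, belonged to Zosma29g00620. Its 7 male libraries held 31671, 8448, 200932, 189616, 172590, 26991 and 227934 scaled fragments. In female flower it lay between 32.5 and 46.8 except in early 0, which held 2500, in leaf between 15.7 and 166, and in root at 43.2, 35.8, 29.1 and 38.3. Male libraries 0, 1 and 5 were thus several-fold below the other 4, and still above every library of another tissue. Zosma9g00300 came next with a gap of 11.87, and its male libraries held 40458, 41812, 191647, 239965, 220047, 58898 and 197849, with the same 3 low. At the other end of the list, the last genes kept had gaps of 7.92 and 7.91, and the first left out had 7.89 and 7.88. The deposited values give male libraries larger sums (10845975 to 25737103) than female libraries (6778697 to 7687605), and the gap depends on the scaling. Its median over the 300 genes was 9.56 as deposited and 8.62 with every library set to the same total. With equal totals, male flower stayed alone above the gap for all 300. Which scaling lies closer to the true levels was not tested.

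The 300 genes varied among the male libraries more than most genes of male flower. The SD of log2 over the 7 male libraries had a median of 1.22 for these genes and 0.593 for the 10983 nuclear genes with a male median of at least 6. Male 5 was the lowest library for 205 of the 300 (68.3%), against 38.6% of the 10983, and lay at least 8-fold below the gene's own male median for 100 (33.3%), against 4.34%. Male 1 was the highest for 179 (59.7%), against 30.3%. It had the fewest fragments (5696800), the largest factor (4.52) and the largest sum of scaled fragments (25737103) of the 7. As a share of the library, the 300 genes held 27.2% in male 1, below the 31.8% to 34.0% of male 2, 3, 4 and 6. The ranking of the male libraries with equal totals was not tested. These figures describe the libraries, and no test was made between replicates of 1 tissue.

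**Figure D3:**
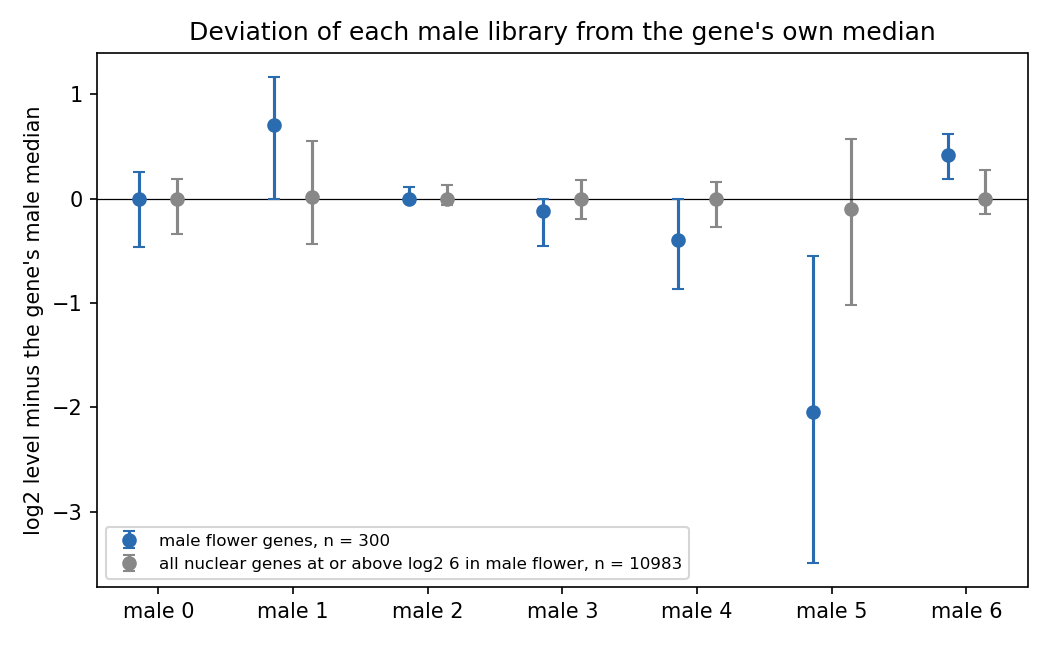
Deviation of each of the 7 male libraries from the gene's own male median, on the log2 scale. Points are medians over genes and bars span the quartiles, in blue for the 300 genes and in grey for the 10983 nuclear genes with a male median of at least 6. Male 5 has a median deviation of -2.04 for the 300 genes and -0.096 for the wider set.

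Some genes kept a steady level in every male library and others were almost absent from 1 or more of them. Zosma205g00330 varied least, with 2500 (2499.8), 3217, 2624, 2675, 2059, 3011 and 3447 scaled fragments in male libraries 0 to 6, so that male 5 was among its higher values. Zosma41g00780 was nearly as even, from 2813 to 4522. The opposite case was Zosma121g00610, which had 3386, 3777, 3624, 2791, 3037 and 3458 in male libraries 0, 1, 2, 3, 4 and 6, and 0 in male 5. Largest of all was the spread of Zosma14g01030, with 12064, 31580 (31579.5), 2799, 37.7, 31.0, 6.80 and 10128 in male libraries 0 to 6. Its male libraries 3, 4 and 5 thus reached no more than a small fraction of male 0, 1 and 6, and male 5 lay below the 11.3 and 11.6 of the late female libraries. An SD of at least 2 was found for 69 of the 300 genes and one under 0.5 for 25. The quartiles of the SD were 0.806 and 1.89 for the 300, against 0.386 and 0.919 for the 10983 nuclear genes. In male 5, 5 of the 300 genes were at 0 and 10 had fewer than 3 fragments.

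**Figure D4:**
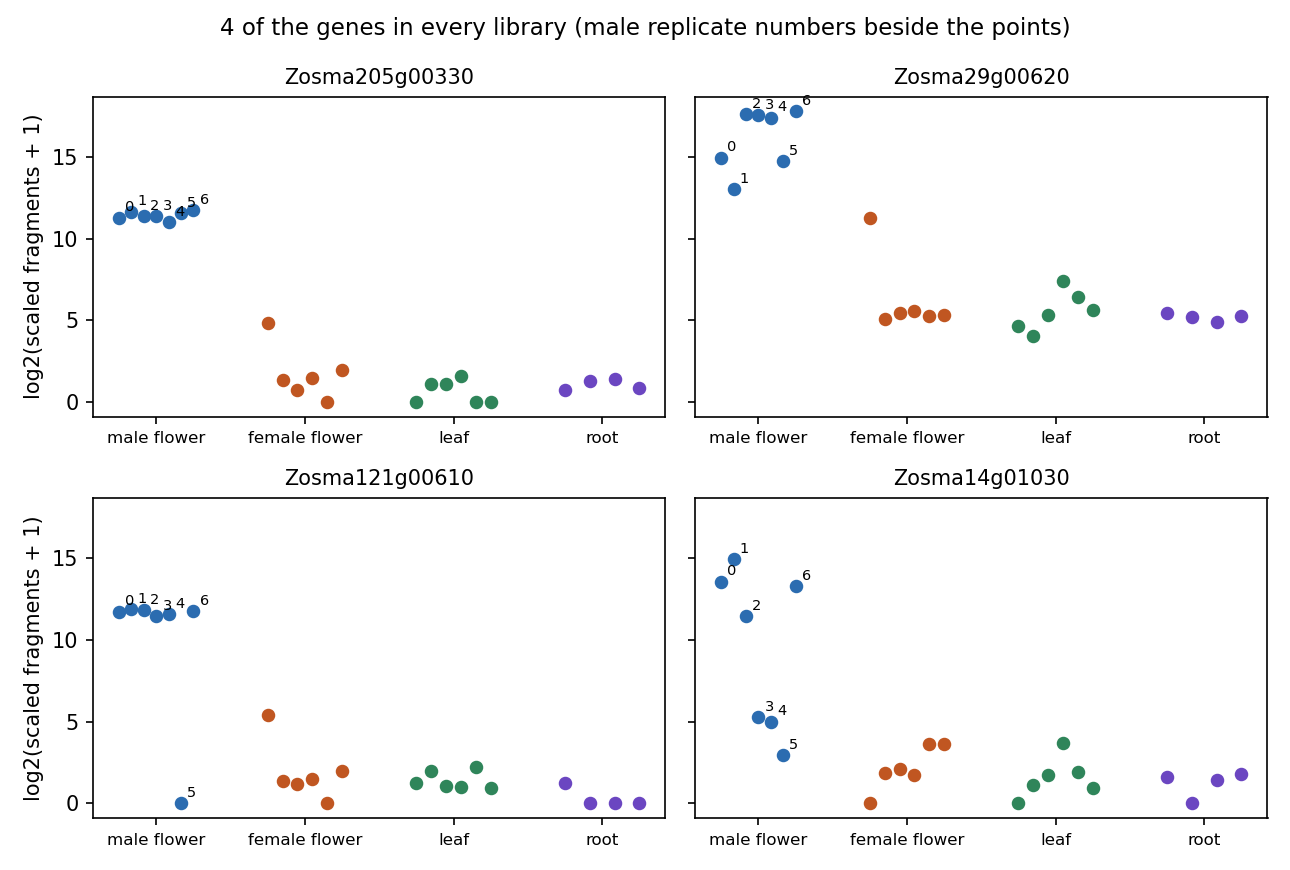
Levels of 4 of the genes in every library, as log2(scaled fragments + 1), with male replicate numbers beside the points. Zosma205g00330 is even over the male libraries, Zosma29g00620 is lower in male 0, 1 and 5, Zosma121g00610 is at 0 in male 5, and Zosma14g01030 falls to 37.7, 31.0 and 6.80 scaled fragments in male 3, 4 and 5.

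The genes also differed in which male libraries were low. A level at least 4-fold below the gene's male median was found for 152 genes in male 5, 20 in male 1 and 15 in male 0. Of the 20 and the 15, 9 genes were shared, whereas 6 of the 20 and 2 of the 15 were also low in male 5. Neither these 4-fold counts nor the overlaps were made over the wider set of 10983 genes. At 8-fold, male 1 was low for 10 of the 300 (3.33%), against 1.88% of the wider set. Male 0 was low at 8-fold for 6 (2.0%), against 0.637%. Male 5 was the highest library for 24 genes (8.0%), a smaller share than the 28.9% of the 10983 nuclear genes with a male median of at least 6. Their levels there were 2.75 times the gene's male median (median over the 24), against 0.503 times in male 0, and 0.95 to 1.04 times in the other 5. These 24 genes held 1.34% of the scaled fragments of male 5 and 0.147% to 0.297% of those of the other male libraries. Choosing genes for a maximum in male 5 makes the ratio and the share high there. Neither was taken for genes of the wider set.

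Outside male flower the median gene was counted at a few fragments in every library but early 0. It had 62.5 fragments in early 0, 3.0 to 6.0 in the other female libraries, 1.0 to 6.0 in leaf and 2.0 to 3.0 in root. Female flower had the highest of the 3 other medians for 190 genes, leaf for 63 and root for 47. A median of at least 10 scaled fragments was reached by 84 genes in female flower, 54 in leaf and 53 in root, and one of at least 100 by 6, 3 and 4 of them. None of the 300 was at 0 in every female library, 13 were at 0 in all 6 leaf libraries and 18 in all 4 root libraries, where 0 counted fragments allow up to 3 per library. The rule keeps genes whose gaps lie between 7.91 and 11.94, while their male medians run from 7.93 to 18.49, so the levels outside male flower are tied to those in male flower by the choice of genes. With that limit, and as a description only, across the 300 genes, which are not independent and share a library's depth, Spearman's rho between the level in a library and the male mean was 0.863 in early 0, 0.810 to 0.878 in the other female libraries, 0.751 to 0.917 in leaf and 0.754 to 0.807 in root. As a share of the male mean, the median gene stood at 1.21% in early 0 with quartiles of 0.910% and 1.47%, and at 0.0328% to 0.0844% in the other female libraries. The highest leaf library was leaf 3 at 0.103%, against 0.018% to 0.0558% in the other leaf libraries, and root lay at 0.0196% to 0.0347%. Early 0 held more than every other female library for 283 of the 300 genes. The part of RNA from male flowers or of reads from other libraries in these values was not tested.

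**Figure D5:**
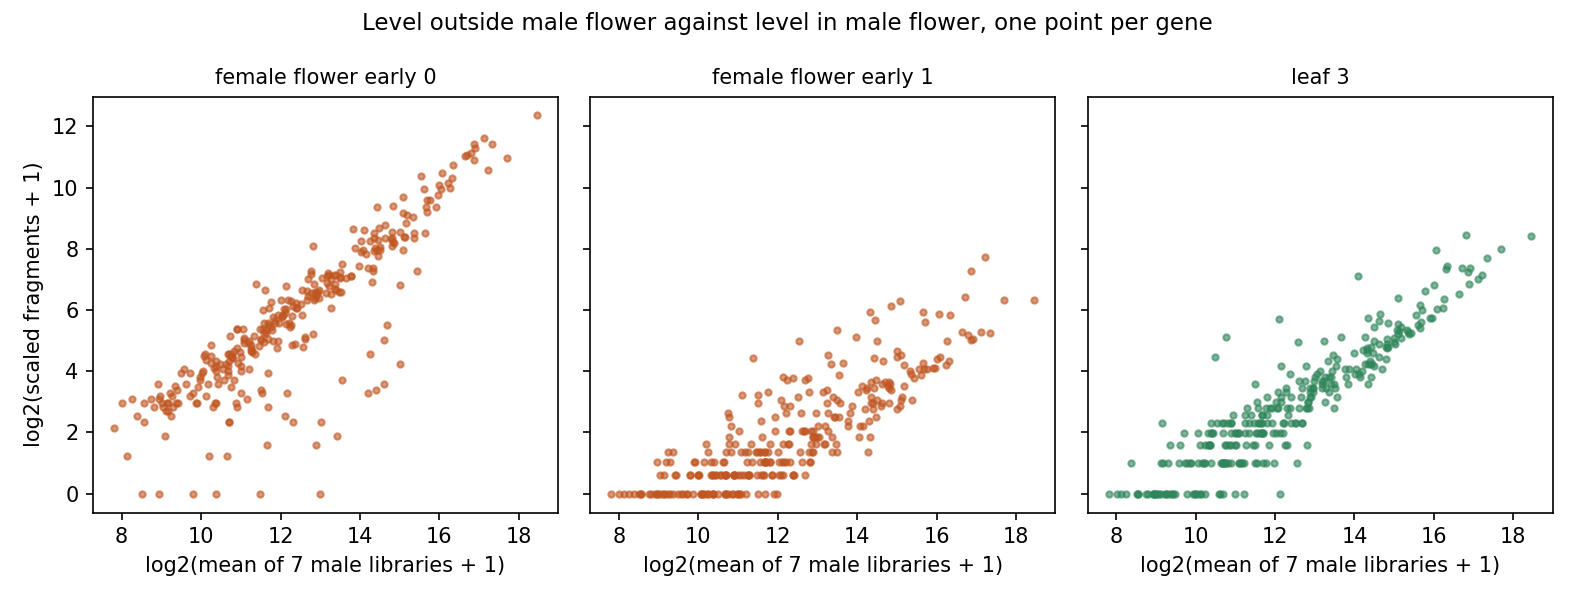
Level in female early 0, female early 1 and leaf 3 against the mean of the 7 male libraries, both as log2(scaled fragments + 1), with 1 point per gene (n = 300). Most genes lie well higher in early 0 than in early 1, the lowest levels form steps of whole fragments, and Spearman's rho is 0.863, 0.852 and 0.917.

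The contrasts among female flower, leaf and root are not the contrast that chose the genes, although the rule keeps these differences smaller than the gap to male flower. The limma test covered all 17445 genes that reached 10 scaled fragments in 2 or more libraries, and a gene was called where its adjusted p was below 0.05 and the levels differed 2-fold or more. The 300 genes passed that filter, but 158 of them through male flower, since only 142 reached 10 scaled fragments in 2 libraries elsewhere. Counts over the 300 therefore take in genes admitted through male flower, which could still be called. Zosma41g00780 reached 10 scaled fragments outside male flower only in early 0. It was called higher in female flower than in leaf and in root (limma adjusted p = 0.0114 and 0.0093). Each count is set below beside the count with only the compared tissues filtered and fitted. A call on these genes often rests on a handful of fragments.

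Female flower was called above leaf for a minority of the genes. The log2 fold change was above 0 for 271 of the 300, for 193 without early 0 and for 143 after quantile normalization. Those counts were not made over all genes. By limma, 32 of the 300 were higher (10.7%), against 28.0% of all genes tested, and 0 were lower, against 19.6%. At an unadjusted p under 0.05, 52 were higher and 0 lower, a count not made over all genes. With only female flower and leaf filtered and fitted, limma called 17 of 135 higher (12.6%), against 29.7% of all genes tested. The median log2 fold change was 0.79 over the 300 and 0.10 over all genes. It depended on the scaling: over the 300 it was 1.18 with equal library totals and -0.045 after quantile normalization, where 7 genes were called higher and 4 lower. Early 0 was the highest female library for all 32, and without it 15 genes were higher, all of them among the 32, 5 were lower and the median was 0.20. Over all 17437 genes tested without early 0, 4754 were higher and 3390 lower, with a median of 0.06. Leaving out leaf 0 gave 21 of the 300 higher, and 4563 over all genes, against 4882 in the main fit. The largest change was that of Zosma238g00120, which held 577, 77.5, 87.1, 160 (159.9), 136 and 181 scaled fragments in early 0 to 3, late 0 and late 1, against 7.09, 26.1, 7.92, 35.9, 19.8 and 13.6 in leaf 0 to 5. Every female library was above every leaf library, also without early 0, and the log2 fold change was 3.25 (SE 0.616, limma adjusted p = 1.56e-04). Next was Zosma125g00730 at 155, 60.8, 133, 69.7, 56.0 and 78.4 in the same female libraries and 3.40 to 32.5 in leaf, with a log2 fold change of 3.03 (SE 0.941, limma adjusted p = 0.00897).

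Against root, limma called 27 of the 300 genes higher in female flower (9.0%), against 17.7% of all genes tested, and 0 lower, against 17.6%. At an unadjusted p under 0.05, 54 were higher and 1 lower, again not counted over all genes. With only female flower and root filtered and fitted, limma called 21 of 124 higher (16.9%), against 23.5% of all genes tested. The median log2 fold change was 1.01 over the 300 and 0.07 over all genes, and over the 300 it was 1.24 with equal totals and 1.05 after quantile normalization. All 27 had their highest female value in early 0. Without early 0, 16 were higher, all of them among the 27, 6 were lower and the median was 0.43. Over all 17437 genes tested without early 0, 2886 were higher and 3012 lower, with a median of 0.05. Among the 300, the count was 12 without root 2, 11 without root 3 and 42 without male 5. Over all genes tested, 2290, 2105 and 3266 were higher in these fits, against 3083 in the main fit. Male 5 is in neither tissue but enters the shared estimate of the spread and the filter on genes. Zosma19g00440 had 31.3, 8.38, 4.55, 9.96, 12.0 and 16.7 scaled fragments in the female libraries and 0, 0, 0.855 and 1.63 in root, where 3 fragments were counted over the 4 libraries. Its log2 fold change was 3.10 (SE 0.636, limma adjusted p = 5.62e-04) and depends on the pseudocount: with a pseudocount of 10 it was 1.085 and the call was lost (limma adjusted p = 0.0993, the highest over the alternatives, the lowest being 9.13e-11), and with 0.1 it was 5.03. The ratio of pooled fragments was 23.4 with an exact 95% counting interval of 7.81 to 115. Zosma33g00140 had 171, 34.1, 80.6, 55.0, 46.7 and 46.5 in the female libraries against 9.31, 8.21, 5.13 and 4.89 in root, with no overlap, and a log2 fold change of 3.04 (SE 0.641, limma adjusted p = 7.31e-04).

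Between root and leaf few calls were made. Limma found 2 of the 300 genes higher in root (0.67%), against 18.5% of all genes tested, and 0 lower, against 11.5%. At an unadjusted p under 0.05, 6 were higher and 1 lower, not counted over all genes. With only root and leaf filtered and fitted, limma called 2 of 92 higher (2.17%), against 12.9% of all genes tested. The median log2 fold change was -0.23 over the 300 and 0.18 over all genes. The direction of the calls turned with the settings: quantile normalization gave 0 higher and 26 lower with a median of -1.17 over the 300, and library weights gave 30 higher and 31 lower. Zosma52g00190 had 30.6, 5.23, 4.27 and 16.3 scaled fragments in root and 0 to 3.63 in leaf, so the ranges did not overlap, with a log2 fold change of 2.22 (SE 0.750, limma adjusted p = 0.0258). Zosma238g00120, also named above, had 186, 167, 7.69 and 63.5 in root, where root 2 lay within the leaf range, and a log2 fold change of 1.95 (SE 0.688, limma adjusted p = 0.0325). Without leaf 0, root 0 or root 3 neither gene was called, with limma adjusted p of 0.0594, 0.123 and 0.0729 for Zosma52g00190 and 0.0712, 0.159 and 0.0620 for Zosma238g00120. The call of Zosma238g00120 was also lost without leaf 2, leaf 5 or root 1 (limma adjusted p = 0.0698, 0.0545 and 0.149). Over all alternatives the limma adjusted p ran from 0.0058 to 0.335 for Zosma52g00190 and from 3.22e-08 to 0.159 for Zosma238g00120. The count moved with single libraries: 0 genes were called without leaf 0 or without root 0, 1 without leaf 5, without root 1 and without root 3, 4 without leaf 1, leaf 4 or male 5, and 8 without early 0. Over all genes, the main fit gave 3224 higher and 2003 lower. Those counts were 2773 and 1935 without leaf 0, 2326 and 1748 without root 0, and 3138 and 1967 without early 0. Over the 3 contrasts, setting all libraries to the same total moved the median of all genes from 0.10 to 0.57 for female flower against leaf, from 0.07 to 0.30 for female flower against root and from 0.18 to 0.44 for root against leaf.

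Late and early female flower were compared without a test, because the rule caps their difference. The mean log2 level was lower in late than in early flower for 275 of the 300 genes, with a median difference of -1.01, but early 0 set that direction. Without it the median was 0.19, and 186 genes were higher and 112 lower in late flower. Zosma14g01030, the gene of largest male spread, stood at 11.3 and 11.6 scaled fragments in the late libraries and at 0, 2.62 and 3.25 in the early ones, with 2.34 in early 3. Zosma150g00220 stood at 23.3 and 21.8 in late flower and at 9.53, 5.76 and 7.15 in early flower, with 12.3 in early 3. In the other direction, Zosma65g00010 had 4.67 and 2.18 in late flower against 114, 20.4 and 14.9 in early flower, and Zosma81g00900 had 0 and 7.26 against 65.3, 12.6 and 3.90.

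Position and length were not used to choose the genes. An identifier consists of a number before the g and a number after it that advances in steps of 10, and for 41 of the 300 genes (13.7%) the next or the preceding identifier was also in the list. They formed 13 pairs and 5 triplets of successive numbers. In the following blocks of 300 genes by gap, the count was 22, 17, 8 and 20. The 300 identifiers carried 169 different first numbers. Of the 23 adjacent pairs, 47.8% had their lowest value in the same male library, against 49.0% of all pairs among the 300. Zosma29g00630 was singled out after its values were seen, because it follows the gene of the widest gap, Zosma29g00620. It held 117181, 116167, 236394, 195065, 172376, 21815 and 296577 scaled fragments in male libraries 0 to 6, so that male 5 alone was far below the rest, whereas Zosma29g00620 was also low in male 0 and male 1. Where neighbours are near-identical copies, the counting could have divided their reads, which was not tested.

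The ratio of a gene's scaled fragments to its FPKM rises with the transcript length used by the authors, and it was set relative to the median nuclear gene. By this measure the 300 genes were short: the median was 0.733, with quartiles of 0.44 and 1.15, against 1.06 for the 10983 nuclear genes with a male median of at least 6. Below the first quartile of those genes were 142 of the 300 (47.3%, against 25.0% of those genes), and above the third quartile 35 (11.7%). The next 300 genes by gap had a median of 0.812. Zosma180g00080, at 2.79, was longer than the median gene, and Zosma14g01030, at 0.334, was shorter.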

How the data were processed

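Poly(A) RNA libraries were read from both fragment ends on an Illumina HiSeq, per the labels' protocols. TopHat2 2.0.12, Cuffnorm 2.2.1 and Cuffdiff 2.2.1 are listed, with no role or order, per the submitters' processing notes. The build, annotation and strandedness were not given in the sources used here. The table deposited by the authors as counts holds a scaled signal, in which each library has 1 step (0.524 to 4.52). Of its non-zero values under 1000 steps, 99.7% to 99.8% were whole multiples to a tolerance of 0.05. Residues near 0 were not whole, so no count test was run. The authors' FPKM table gave levels per length, relative lengths and an alternative.

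The members and the choice of lists were made with earlier results of these data known. The model, in limma 3.58.1 and R 4.3.3, had 1 coefficient per tissue for log2(value + 1) over 23 libraries. It used trend and robust moderation and Benjamini-Hochberg adjustment over all genes tested. The root against leaf fit was also run on simulated data. Those data had no outlying library and left out genes of low mean level, so they do not cover calls near the limit of counting. Python 3.11.15, numpy 2.4.6, pandas 2.3.3 and matplotlib 3.10.9 made the tables and plots. Intervals and floors cover counting error only. Replicate numbers were not treated as pairs. Named genes are the 2 with the widest gap, the highest male median, the largest called change per contrast and direction, the largest difference between late and early female flower each way, and the largest and smallest male spread. Lists by product name were planned, but no table of names was given, so they were not analysed here.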

Additional observations from a re-analysis of the deposited data

Results flagged for a closer look

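Single libraries stood apart from their tissue in 16 of 68 sets of values examined, where the highest or lowest library was separated from the rest by more than Dixon's 95% critical value; chance gives such a gap in about 1 set in 20. The sets share libraries and genes and are not independent, and some genes were named for their spread over the male libraries or their difference between late and early female flower, so the number of such gaps cannot be set against chance.

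Female early 0 lay above the other 5 female libraries in 7 sets. It held 0.940% of its scaled fragments in the 300 genes, and their median log2 level there was 5.44. By gene it held 2500 scaled fragments (2499.92) of Zosma29g00620, 3174 of Zosma9g00300, 5245 of Zosma180g00080, 40.8 of Zosma121g00610 and 42.2 of Zosma41g00780.

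Male 5 lay below the other 6 male libraries in 6 sets. Its share in the 300 genes was 13.1%, and it held 1073 scaled fragments of Zosma52g00190, 12348 (12347.5) of Zosma238g00120, 165 of Zosma125g00730, 1.70 of Zosma65g00010 and 0 of Zosma121g00610, which was named for the large male spread that this 0 makes. The remaining 3 sets concern values near the limit of counting: Zosma41g00780 at 5.98 in leaf 3 and 1.63 in root 3, and Zosma121g00610 at 1.33 in root 0. In the root sets the other libraries were tied at 0, so the gap filled the whole range.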

How the results depend on the processing

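Calls moved with the settings, among these weakly counted genes and over all genes. For root against leaf, the 2 genes called became 8 with a pseudocount of 0.1 (4 higher, 4 lower), 1 with a pseudocount of 10, 26 after quantile normalization (all lower), 5 with equal library totals, 61 with library weights (30 higher, 31 lower), 0 with the replicate block, 6 without leaf 1, leaf 4 and root 2, and 7 without leaf 3 and early 0, a choice made after seeing the data. For female flower against leaf, 32 became 54, 8, 11 (7 higher, 4 lower) and 78 under the first 4 of these, 17 with only the compared tissues, where 135 of the 300 were tested, 54 with library weights and 18 with the replicate block. For female flower against root, 27 became 44, 5 and 49 with pseudocounts of 0.1 and 10 and with equal totals, 110 with library weights (101 higher, 9 lower) and 15 without leaf 1, leaf 4 and root 2. The fit of the weights gave a convergence warning. Over all 17445 genes tested, root against leaf gave 3224 higher and 2003 lower in the main fit. With library weights it gave 6313 and 3382, and after quantile normalization 2478 and 2509. Over all genes, female flower against leaf went from 4882 higher and 3423 lower to 6339 and 2370 with equal totals. Female flower against root went from 3083 and 3076 to 3762 and 3810 with library weights. Beyond these constructions the causes were not tested. Same-numbered libraries of different tissues correlated at -0.407 to 0.518 in their deviations, so the numbers were not taken as pairs. With separate early and late female coefficients and without early 3, 26 of the 300 were higher in female flower than in leaf. Against root, 18 were higher and 1 lower in that fit. Over all 17423 genes it gave 4671 higher and 3325 lower against leaf, and 2687 and 2912 against root. Leaving out 1 library at a time gave 0 to 8 genes for root against leaf, 20 to 48 for female flower against leaf (21 without leaf 0) and 11 to 42 for female flower against root. The rule chose 173 to 298 of the 300 genes again in that way, lowest without early 1, where early 0 weighs more in the early median and 127 of the 300 passed the limit on the stage difference. It chose 271 on FPKM, 252 with a pseudocount of 10 and 285 with equal totals. The members' male share was 27.0% to 30.4% without 1 male library and 34.9% of FPKM.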

Other observations

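Choosing the genes by gap ties their levels outside male flower to those in male flower, so the following correlations are high in part by construction and have no baseline. Across the 300 genes, which share each library's depth and are not independent, Pearson's r of log2 levels between early 0 and male libraries 0 to 6 was 0.816, 0.717, 0.894, 0.937, 0.903, 0.458 and 0.86, highest for male 3. As a share of male 3, the median gene stood at 1.36% in early 0, with quartiles of 1.23% and 1.57%. For leaf 3 the same values of r were 0.848, 0.757, 0.909, 0.829, 0.825, 0.499 and 0.92, highest for male 6. Of the 300 genes, 137 had at least 3 fragments in each of the 5 female libraries other than early 0, and 50 had fewer in all 5.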
